A study of Mus musculus with 17 samples.

Results

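Imprinted genes are expressed from the allele of 1 parent, and the 42 listed here lie in 18 clusters or single loci of the mouse genome. H3K27ac, the acetylation of lysine 27 of histone H3 that marks active promoters and enhancers, was mapped over them in mouse hypothalamus by CUT&Tag, in which an antibody brings the Tn5 transposase to marked chromatin. The members are a list of symbols, and no measured value enters the rule, but the list was chosen with earlier results of these data known. All 42, of 49943 annotated genes, were found in the RefSeq table of build mm10 (GRCm38.p6), 35 as protein-coding and 7 as long noncoding RNA genes. Each was described by the peaks that overlapped its span or the 10 kb on either side.

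The series holds 17 libraries of dissected hypothalamus: 3 bulk CUT&Tag libraries titled as biological replicates and 14 Paired-Tag sub-libraries, 7 of DNA and 7 of RNA, made with antibodies to H3K27ac and H3K27me3. All came from Mus musculus, and the labels give no strain, sex, age or genotype. A single peak list deposited for the 3 bulk libraries together was analysed, and Paired-Tag data were not used here. That list holds no value per replicate and no read count, so the depth is unknown, no spread between animals can be given, and the values below are descriptions without a test. The list does not separate the parental alleles. In whole tissue, acetylation of few cells and weak acetylation of many cannot be told apart.

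An imprint is a DNA methylation mark set in the egg or the sperm at a control region and kept through development on that parent's chromosome. A control region can silence genes of a cluster through a long noncoding RNA transcribed within that cluster, as at Airn and Kcnq1ot1. Another way is an insulator that blocks enhancers, as between Igf2 and H19. The zinc finger protein ZFP57 binds a methylated hexamer and protects imprints in the early embryo. In the hypothalamus imprinted genes are known for effects on feeding, growth, puberty and maternal care, and loss of the paternal genes of the Prader-Willi cluster causes overeating in people.

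The promoters shown here are of starts with a strong peak and of CpG-rich starts without one. Each runs 5′ to 3′ on the gene's strand, from 250 bases before to 50 bases after a RefSeq start in build GRCm38.p6, and capitals mark CpG and the ZFP57 hexamer TGCCGC or its reverse complement GCGGCA. The promoters of the 6 members with the highest fold at a listed start follow.
Inpp5f (chr7:128611115-128611414, plus strand): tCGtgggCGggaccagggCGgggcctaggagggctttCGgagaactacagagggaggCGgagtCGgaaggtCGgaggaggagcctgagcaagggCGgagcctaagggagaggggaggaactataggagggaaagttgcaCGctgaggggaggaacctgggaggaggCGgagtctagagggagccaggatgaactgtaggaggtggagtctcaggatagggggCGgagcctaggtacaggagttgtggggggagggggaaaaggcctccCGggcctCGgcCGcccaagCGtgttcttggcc
Commd1 (chr11:22982235-22982534, minus strand): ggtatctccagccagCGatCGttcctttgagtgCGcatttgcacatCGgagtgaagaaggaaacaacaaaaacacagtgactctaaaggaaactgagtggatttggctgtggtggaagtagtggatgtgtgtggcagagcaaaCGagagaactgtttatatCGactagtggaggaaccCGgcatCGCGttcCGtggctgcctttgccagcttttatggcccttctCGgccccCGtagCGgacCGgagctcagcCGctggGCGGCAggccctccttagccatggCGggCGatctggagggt
Ube3a (chr7:59228500-59228799, plus strand): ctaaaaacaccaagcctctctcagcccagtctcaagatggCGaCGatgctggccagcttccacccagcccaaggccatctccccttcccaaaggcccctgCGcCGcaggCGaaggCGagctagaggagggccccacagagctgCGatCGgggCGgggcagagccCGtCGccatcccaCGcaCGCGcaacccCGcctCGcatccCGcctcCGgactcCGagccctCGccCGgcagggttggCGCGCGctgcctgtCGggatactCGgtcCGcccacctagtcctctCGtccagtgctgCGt
Ndn (chr7:62348027-62348326, plus strand): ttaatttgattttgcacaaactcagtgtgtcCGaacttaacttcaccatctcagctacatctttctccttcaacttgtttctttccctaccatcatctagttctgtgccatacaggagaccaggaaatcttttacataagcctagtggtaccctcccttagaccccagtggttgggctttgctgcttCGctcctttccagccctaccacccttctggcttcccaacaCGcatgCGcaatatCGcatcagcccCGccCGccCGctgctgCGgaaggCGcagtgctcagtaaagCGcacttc
Copg2 (chr6:30896745-30897044, minus strand): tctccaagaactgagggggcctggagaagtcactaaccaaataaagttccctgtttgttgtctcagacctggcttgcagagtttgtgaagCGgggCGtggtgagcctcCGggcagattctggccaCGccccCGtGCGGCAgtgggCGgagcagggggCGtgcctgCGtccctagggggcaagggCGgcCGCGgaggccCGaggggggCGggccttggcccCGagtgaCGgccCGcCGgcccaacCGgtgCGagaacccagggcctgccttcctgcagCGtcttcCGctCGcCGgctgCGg
Zim1 (chr7:6696383-6696682, minus strand): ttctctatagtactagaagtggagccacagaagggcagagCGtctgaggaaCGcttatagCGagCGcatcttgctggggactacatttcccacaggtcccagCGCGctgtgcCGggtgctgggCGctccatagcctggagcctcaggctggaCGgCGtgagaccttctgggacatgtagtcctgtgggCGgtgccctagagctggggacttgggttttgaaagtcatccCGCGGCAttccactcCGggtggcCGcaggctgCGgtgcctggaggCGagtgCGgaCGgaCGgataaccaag

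The next 4 are the starts with most CpG among the 11 listed starts of members that had no peak within 1 kb.
Grb10 (chr11:12037371-12037670, minus strand): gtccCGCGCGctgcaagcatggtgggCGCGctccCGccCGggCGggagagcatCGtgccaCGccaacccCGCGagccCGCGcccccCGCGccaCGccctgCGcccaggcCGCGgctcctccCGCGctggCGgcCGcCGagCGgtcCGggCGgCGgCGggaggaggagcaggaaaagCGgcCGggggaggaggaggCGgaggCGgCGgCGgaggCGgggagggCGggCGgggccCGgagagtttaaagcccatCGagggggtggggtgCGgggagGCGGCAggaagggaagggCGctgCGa
Phlda2 (chr7:143502475-143502774, minus strand): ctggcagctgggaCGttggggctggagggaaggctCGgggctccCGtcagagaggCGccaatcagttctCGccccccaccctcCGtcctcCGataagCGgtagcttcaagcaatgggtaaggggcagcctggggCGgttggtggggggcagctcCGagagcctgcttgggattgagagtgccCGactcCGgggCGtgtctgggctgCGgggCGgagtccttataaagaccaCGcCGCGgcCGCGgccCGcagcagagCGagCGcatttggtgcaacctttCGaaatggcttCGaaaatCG
Dio3 (chr12:110278980-110279279, plus strand): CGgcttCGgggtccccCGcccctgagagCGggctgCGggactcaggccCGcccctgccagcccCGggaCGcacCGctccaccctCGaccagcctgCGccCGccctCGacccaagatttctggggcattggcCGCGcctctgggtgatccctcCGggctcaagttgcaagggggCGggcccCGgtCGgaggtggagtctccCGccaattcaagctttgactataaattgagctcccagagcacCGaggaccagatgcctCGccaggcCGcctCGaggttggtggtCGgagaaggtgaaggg
Igf2 (chr7:142658755-142659054, minus strand): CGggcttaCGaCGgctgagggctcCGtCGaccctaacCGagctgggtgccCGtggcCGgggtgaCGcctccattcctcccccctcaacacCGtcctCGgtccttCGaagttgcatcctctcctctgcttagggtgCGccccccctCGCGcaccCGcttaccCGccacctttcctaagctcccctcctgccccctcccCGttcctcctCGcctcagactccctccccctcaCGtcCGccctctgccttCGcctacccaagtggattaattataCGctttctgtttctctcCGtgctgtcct

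Nap1l5 is shown because its start carried the hexamer 2 times under a strong peak, and it was chosen after the values were seen.
Nap1l5 (chr6:58907077-58907376, minus strand): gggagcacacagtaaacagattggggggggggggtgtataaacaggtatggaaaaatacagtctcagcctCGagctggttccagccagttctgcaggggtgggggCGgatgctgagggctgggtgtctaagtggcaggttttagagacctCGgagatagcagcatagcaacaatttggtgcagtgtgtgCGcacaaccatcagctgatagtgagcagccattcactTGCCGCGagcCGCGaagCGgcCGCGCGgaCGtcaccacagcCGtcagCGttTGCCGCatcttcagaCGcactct

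Nearly every member of the list had H3K27ac near it. Of the 42 genes, 41 (97.6%) had a peak over the span and its 10 kb flanks, against 68.2% of all annotated genes, 79.2% of protein-coding genes and 79.5% of long noncoding RNA genes. The exception was Dio3, which inactivates thyroid hormone. Longer windows can hold more peaks, and these shares were not matched for length. The median span was 38890 bp for members, 5956 bp for all genes, 17169 bp for protein-coding genes and 8429 bp for long noncoding RNA genes. The 42 windows held 523 distinct peaks, or 0.285% of the 183678 in the list, and 52 of these were counted for more than 1 member because neighbouring windows overlap. The median fold enrichment of these peaks over the background of the authors' peak caller was 3.06, against 3.18 in the whole list. In width the medians were 553 bp at the imprinted genes and 557 bp in the whole list.

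At the gene ends, 36 of 42 members (85.7%) had a peak within 1 kb, against 49.4% of all genes. By kind, the share was 31 of 35 protein-coding members (88.6%), against 69.2% of protein-coding genes, and 5 of 7 noncoding members (71.4%), against 53.2% of long noncoding RNA genes. A peak lay at the lower-coordinate end alone in 16 members, at the higher-coordinate end alone in 14 and at both in 6 of 42. Among all protein-coding genes, 23.2% had a peak at both ends, and the share with a peak at a single end was not taken. The 6 without one were Snrpn, Rian, Dio3, Grb10, H19 and Phlda2.

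The end peaks of protein-coding imprinted genes were not strong beside those of other genes. Their median fold was 7.12 over 31 genes, against 8.60 over the 15147 protein-coding genes with an end peak, and 9 of the 31 (29.0%) reached a fold of 10, against 38.7%. For the 5 noncoding members the median was 5.59, against 4.64 over 6773 long noncoding RNA genes. The strongest was Inpp5f, which encodes a phosphoinositide phosphatase, at 16.5, and the weakest was Mest, a gene for a hydrolase-like protein, at 2.82. Inpp5f stood at percentile 95.0 of protein-coding genes with an end peak, and Mest at 4.30. This ranking uses the ends of the annotated span alone, and inner listed starts of Mest lay in a stronger peak, of 4.56.

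**Figure D1:**
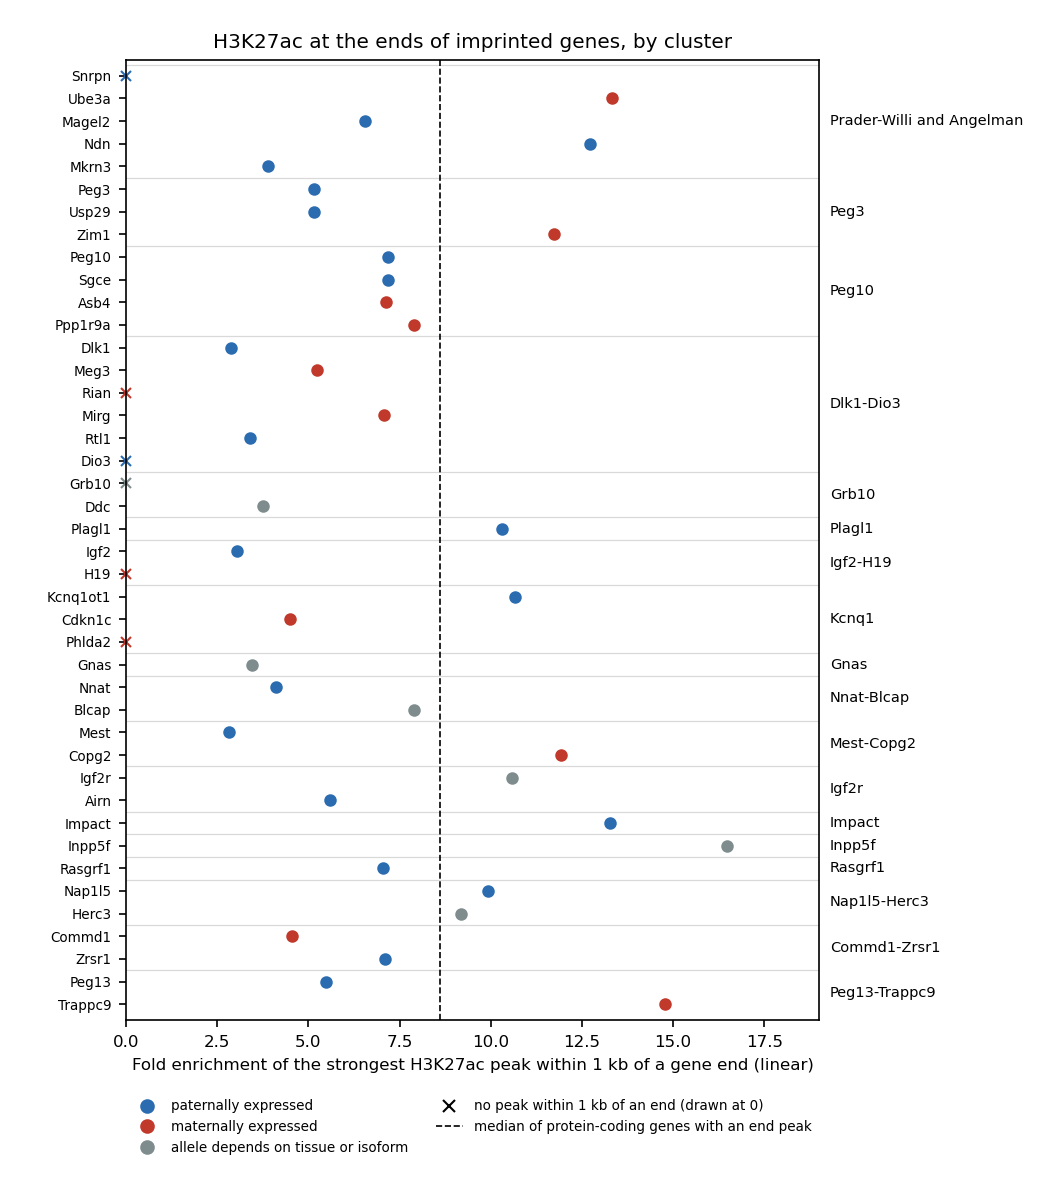
Each row is an imprinted gene, and its point gives the linear fold enrichment of the strongest peak within 1 kb of an end; crosses at 0 are the 6 genes with no such peak, colours give the allele expressed, and the dashed line is the median of protein-coding genes with an end peak, 8.60. Inpp5f (16.5) and Trappc9 (14.8) lie highest, and Mest (2.82) and Dlk1 (2.89) lie lowest among the genes with an end peak.

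Peaks covered more of the imprinted genes than of other genes. The median share of the span and flanks covered was 11.5% over the 42 members, with a range of 0 to 24.0%, against 5.13% over all genes and 7.50% over protein-coding genes. Imprinted genes were longer, with a median span of 38890 bp against 5956 bp. Within the decile of span length of each gene, 33 members lay above the median coverage and 9 below, and the median member stood at percentile 68.2 of its decile. Peg13, a noncoding RNA gene inside Trappc9, was covered most, at 24.0%, followed by Nnat at 19.6% and Ddc at 17.7%. Snrpn (0.856%), Igf2 (1.78%) and Ube3a (2.20%) were covered least among the genes with a peak.

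**Figure D2:**
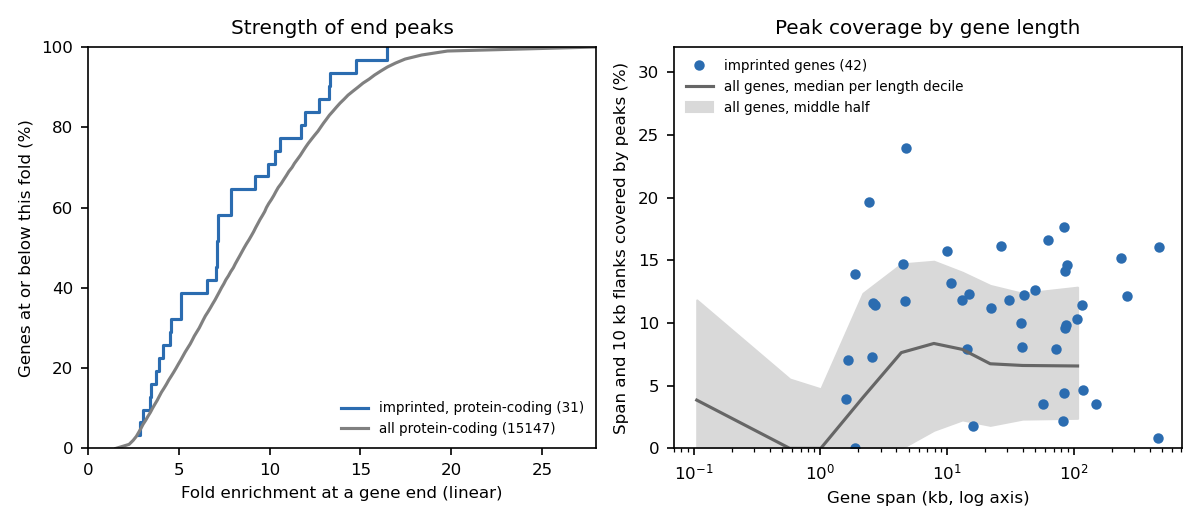
The left panel gives the percentage of genes at or below each linear fold at an end, for 31 imprinted and 15147 protein-coding genes with an end peak; the right panel gives the percentage of span and 10 kb flanks covered by peaks against gene span on a log axis, with 42 imprinted genes as points, the median of all genes per length decile as a line and the interquartile range as a band. The imprinted curve lies left of the other through most of its range, and 33 points lie above the median of their decile.

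The Prader-Willi and Angelman cluster on chromosome 7 was poor in peaks, but several of its genes had strong ones. Over the 3211 kb from Ube3a to Mkrn3 with flanks, 45 peaks covered 0.882% of the bases, against 4.69% in the genome as a whole and 0.875% in the 200 kb on each side. The longest stretch without a peak ran for 1022 kb, between Snrpn and Ndn. The cluster holds 251 annotated genes, of which 206 are small nucleolar RNA genes.

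Ube3a (59228750 to 59310837), a ubiquitin ligase gene that neurons express from the maternal chromosome and whose loss causes Angelman syndrome, had a fold of 13.3 at its start, at a peak of 1667 bp. Only 2 further peaks lay over the gene, at 3.68 and 3.18. The MAGE family genes of this cluster are expressed from the paternal chromosome. Ndn (62348277 to 62349928), for necdin, had 12.7 at a peak that covered most of the gene, and Magel2 (62376979 to 62381640), whose protein takes part in endosomal protein recycling, had 6.55 at a peak of 2299 bp. Mkrn3, which restrains the onset of puberty, had 3.90, its only peak. All 4 starts lay under a peak, and those of Ube3a and Ndn were the strongest.

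Snrpn, for a spliceosomal protein, is annotated over 467683 bp with 4 listed starts, and neither end of its span had a peak. The innermost start, at 60005199, which also begins Snurf, lay in a peak of 1655 bp with a fold of 10.8 whose summit was 946 bp inside the gene. A second start at 60047978 had a peak of 4.98 with its summit 1 bp away. The other two had their nearest peaks 30516 and 58659 bp away. The lack of a peak at the ends of Snrpn is therefore that of the outermost annotated start and of the 3′ end.

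The Peg3 cluster stood out from its surroundings. Its 313 kb held 69 peaks and had 14.6% of bases covered, against 1.10% in the 200 kb on each side. Peg3, a zinc finger gene linked to maternal behaviour, and Usp29, for a ubiquitin protease, are paternally expressed and start head to head on opposite strands. They share a single peak of 3177 bp with a fold of 5.15. Zim1, a maternally expressed zinc finger gene, had 11.7 at its start, with the summit 21 bp inside the gene. Usp29 had 59 peaks over 236662 bp, of which the strongest, at 7.92, lay 144071 bp inside the gene.

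The Peg10 cluster on chromosome 6 had peaks at the ends of all 4 members. Peg10, derived from a retrotransposon and needed in the placenta, and Sgce, for epsilon-sarcoglycan, abut and share a peak with a fold of 7.17, and a stronger one of 8.71 lay inside Peg10. Asb4, a gene of hypothalamic neurons that regulate feeding, had 7.12 just before its start and 8.22 and 7.60 inside the gene. Ppp1r9a, for the synaptic scaffold neurabin, had 7.89 at its start and 62 peaks over its window. The strongest peak of the interval, at 10.7, lay at the end of Pon2.

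The Dlk1-Dio3 cluster on chromosome 12 had only weak peaks at the ends of its paternally expressed genes. Dlk1 stood at percentile 4.89 and Rtl1 at 8.83 of protein-coding genes with an end peak. A peak inside Dlk1 was stronger, at percentile 75.7 of all peaks. Dlk1, for a membrane ligand related to those of Notch, had 2.89 at its start and 4.29 inside the gene, and Rtl1, a retrotransposon-derived gene of placenta and muscle, had 3.41 at an end, in a peak that also lies in Rian. Dio3 had none, and its nearest peak lay 22575 bp from the start. Of the maternally expressed noncoding RNA genes, Meg3 had 5.24 at a peak 1.6 kb wide that ends before its start and 4.11 at a peak on the start itself. Rian, a host of small nucleolar RNAs, had its strongest peak, 3.70, beside Mir370. Mirg, a host of microRNAs, had no peak at its start but one of 7.08 at its 3′ end, the strongest of the cluster. Peaks covered 4.61% of the 849 kb, against 7.38% in the 200 kb on each side.

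The microRNA genes of imprinted loci were seldom at a peak. Of 27 listed, 22 of them on chromosome 12, 5 had a peak within 1 kb (18.5%), against 38.6% of all microRNA genes, and their folds ran from 2.46 to 3.70. Mir409 and Mir410 had the same peak, with a fold of 2.56. A peak over the gene and its 10 kb flanks was listed for 23 of 27 (85.2%), against 76.7%. The 3p arms of these 5, all on chromosome 12, are given with bases 2 to 8, the seed, in capitals, from RefSeq in build GRCm38.p6, because these are the microRNA genes of the list with a peak within 1 kb.
mmu-miR-337-3p: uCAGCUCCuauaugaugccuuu
mmu-miR-370-3p: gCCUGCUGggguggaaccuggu
mmu-miR-381-3p: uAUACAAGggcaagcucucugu
mmu-miR-409-3p: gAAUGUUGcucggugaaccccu
mmu-miR-410-3p: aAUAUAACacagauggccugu
No pair of these 5 shared a seed. The 53 mature microRNAs of the 27 genes held 50 distinct seeds, and 3 seeds were shared between genes, among them that of miR-379-3p and miR-411-3p.

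**Figure D3:**
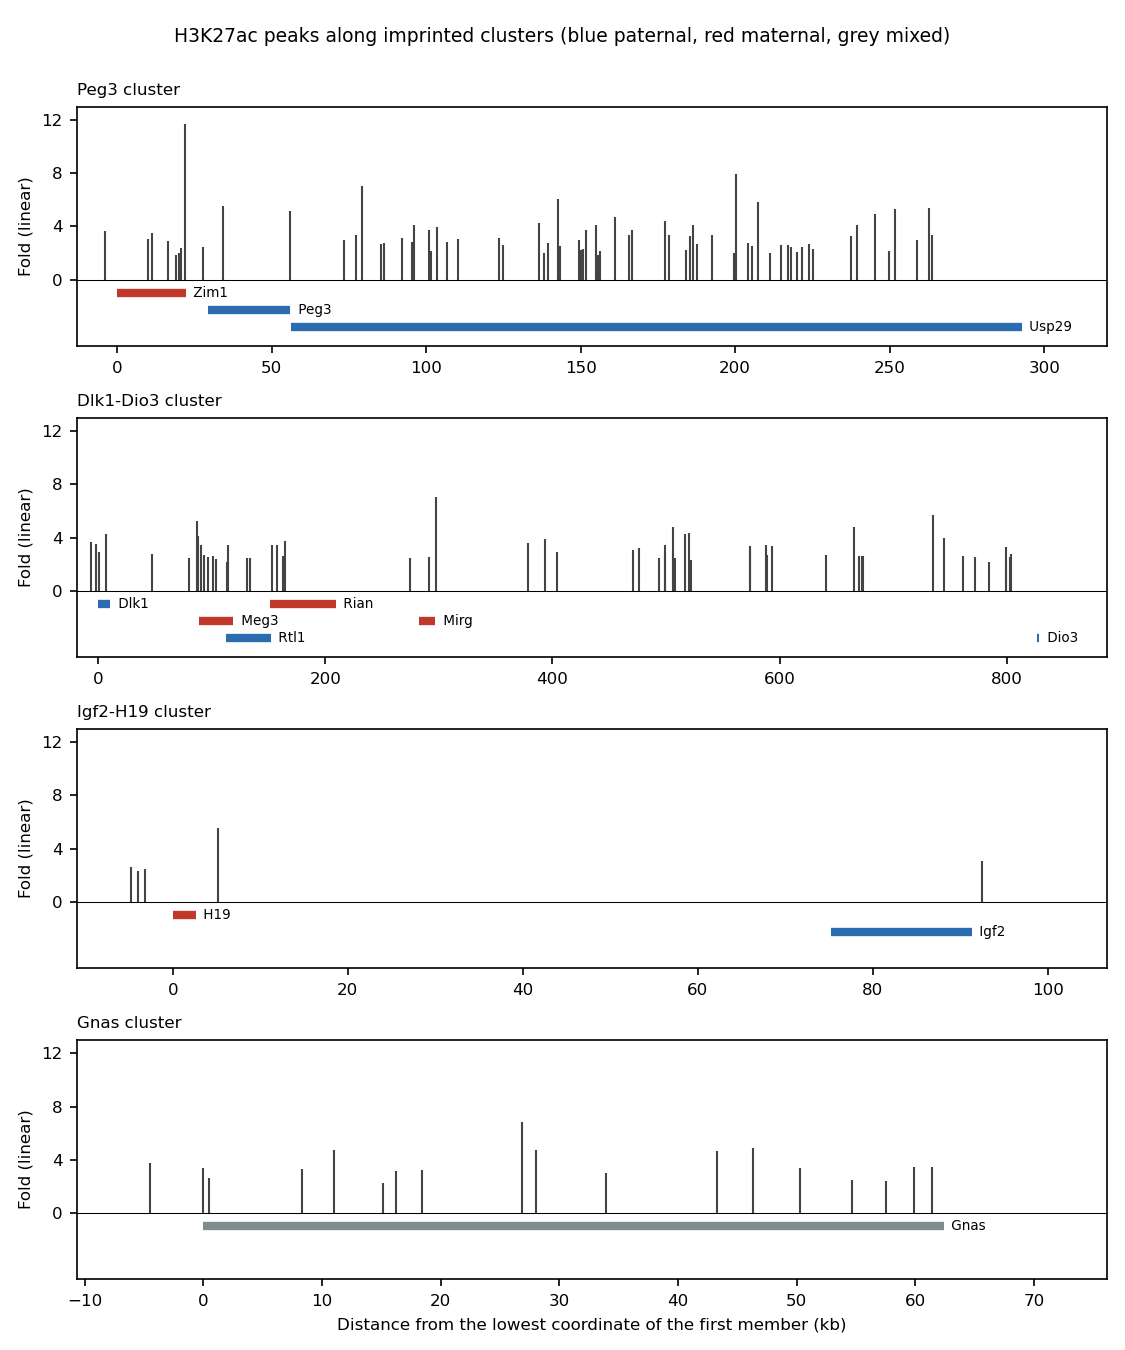
Vertical lines are peaks, placed by the distance of their summit from the lowest coordinate of the first member in kb, with the linear fold as height; bars under each panel are the spans of the members, blue for paternally, red for maternally expressed and grey for both. Peaks are dense along most of Usp29, sparse at Igf2, low at Dlk1 and Rtl1 and absent at Dio3, and the tallest line of the Dlk1-Dio3 panel stands at the end of Mirg (7.08).

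Of the growth genes on distal chromosome 7, Igf2 had few peaks and H19 had peaks only in its flanks. Igf2, the fetal growth factor gene, had a single weak peak in its window, with a fold of 3.03 and its summit at -1174 bp from the outermost of 4 listed starts (negative values lie upstream). The other 3 had none within 1 kb, and the longest stretch without a peak in the cluster, 86.7 kb, covered Igf2 and the interval towards H19. H19 itself, a maternally expressed noncoding RNA gene, had no peak within 1 kb of an end, and the nearest lay 2107 bp away with a fold of 5.56. The H19 window nevertheless held 4 peaks over 11.6% of its bases, against a median of 4.06% for genes of its length decile, while that of Igf2 was covered for 1.78%, against 7.89%. In the Kcnq1 cluster, Kcnq1ot1 (143213111 to 143296547), the paternally expressed RNA that silences its neighbours, had 10.7 at its start, with percentile 88.5 among long noncoding RNA genes with an end peak. Cdkn1c, an inhibitor of the cell cycle, had 4.50, and Phlda2, which restrains placental growth, had none within 7765 bp of its start.

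At the Grb10 locus the peak lay at one promoter and not at the other. Grb10 (11930499 to 12037428 on chromosome 11) encodes an adaptor that damps insulin signalling, and it is expressed from the maternal allele in most tissues and from the paternal allele in neurons. The outer start, with 45 CpG, had no peak within 9258 bp. The inner start at 12027971 had a peak of 167 bp and a fold of 2.14 lying 25 bp away, with its summit at -98 bp, and a wide one of 6.33 with its summit 2005 bp inside the gene. The strongest of the 20 peaks of Grb10, at 9.74, lay near its 3′ end, 95393 bp from the inner start. Ddc, for the decarboxylase that makes dopamine and serotonin, had 26 peaks in its window, 3.76 at its outer start and 7.04 at its inner start, with the summit at -25 bp. The strongest peak of the Ddc window, 12.3, lay at an end of the neighbour Fignl1.

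Gnas, which makes the stimulatory G protein subunit and other transcripts of either allele from alternative promoters, had peaks at all 4 listed starts. They were moderate, with folds of 3.36 at the outermost start, 4.63 at a close pair of starts and 4.85 at the innermost. The strongest of its 18 peaks, 6.85, lay between these starts and at no end of an annotated gene. Peaks covered 16.6% of the Gnas window, against 8.51% in the 200 kb on each side.

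Several imprinted genes are short genes inside an intron of a longer host. Among the 4 such pairs of members, the host had the higher fold in 3 when the strongest peak at a listed start was used, or at an end where no listed start had one, and in 2 by the strongest peak within 1 kb of an end, since Commd1 then falls below Zrsr1. Nnat, for the neuronal membrane protein neuronatin, had 2.86 on its start and 4.12 at its 3′ end, and its host Blcap had 7.89 at its start. Zrsr1, a splicing factor retrogene, had 7.11 and its host Commd1, for a protein of copper handling, 14.3 at the outer of its 2 listed starts. The inner Commd1 start shares the Zrsr1 peak, and the strongest peak within 1 kb of an end of the Commd1 span had 4.55. Peg13 had 5.48 and its host Trappc9, for a trafficking protein, 14.8. Nap1l5, a retrogene expressed in neurons, had 9.92, and Herc3 around it 9.19 at the low end of its span. The listed Herc3 start had its nearest peak 1621 bp away. Of the other imprinted genes, Mcts2 had 11.8 and its host H13 6.01 at a listed start.

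The remaining loci all had end peaks. Igf2r, which clears IGF2, had 10.6 at its start. Airn, the antisense RNA that starts inside Igf2r and silences it on the paternal chromosome, had 4.73 at a peak on its start. A stronger Airn peak, of 5.59, had its summit 1013 bp inside that gene. A narrow peak of 9.10 lay 69233 bp along Airn, in the part beyond Igf2r. Plagl1, a zinc finger gene of growth control, had 10.3 at its start, in a peak that also reached Hymai. Copg2, for a coat protein of vesicles, had 11.9 at its start at a peak shared with Tsga13, and a further peak of 12.1 inside the gene, while Mest had 2.82 at its outer start and 4.56 over the inner ones. Impact, a regulator of translation, had 13.3 within 1 kb of the lower-coordinate end of its span. It has no listed start, and a wider peak of 1734 bp with a fold of 6.89 lay inside the span. Rasgrf1, an activator of Ras in neurons, had 7.06 and 20 peaks. Inpp5f also had peaks of 6.60 and 7.72 inside the gene, at 61136 and 76990 bp from its start.

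**Figure D4:**
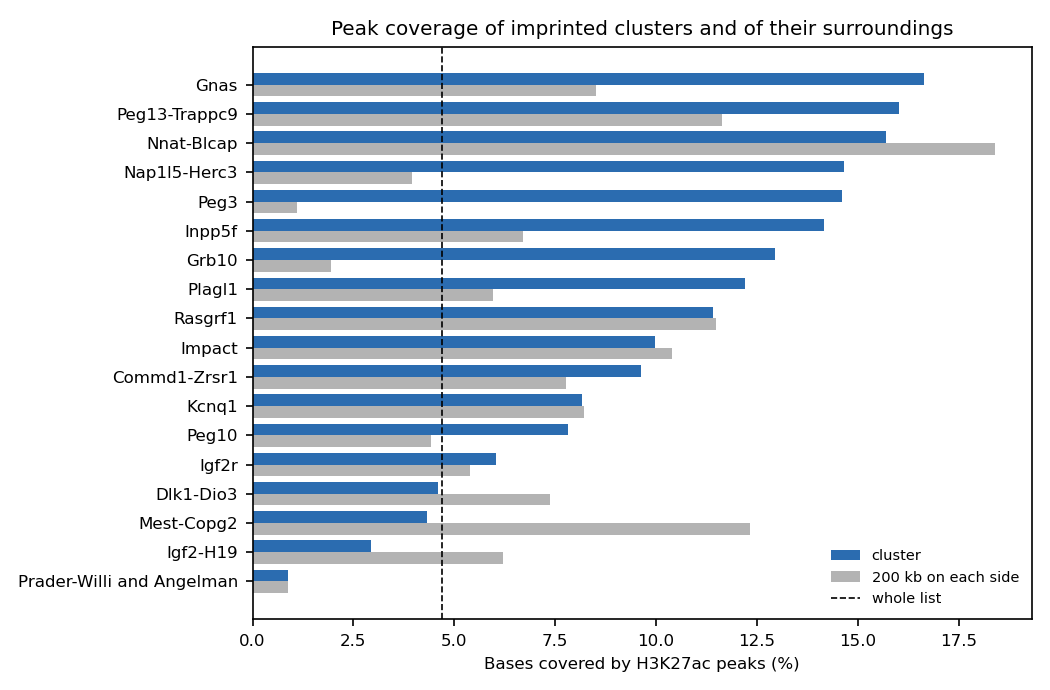
Bars give the percentage of bases covered by peaks in each imprinted cluster with 10 kb flanks (blue) and in the 200 kb on each side of it (grey); the dashed line is the genome as a whole, 4.69%. Of the 18 clusters 14 lie above the line and 11 above their surroundings, with the widest gaps at Peg3 (14.6% and 1.10%) and Grb10 (12.9% and 1.94%). The line includes sequence far from genes, whereas the clusters were drawn around genes. Median coverage of a gene span with 10 kb flanks was itself above the line, at 5.13% over all genes and 7.50% over protein-coding genes.

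Of 51 listed starts, belonging to 34 members, 40 (78.4%) had a peak within 1 kb, against 60.4% of all 32851 listed starts. By gene, it was 29 of 34 (85.3%), against 60.3%. Among starts with at least 20 CpG in the 300 bases shown, 10 of 14 had one (71.4%), against 97.1% of 8701 starts. Starts of one gene can share a peak, and 3 of the 14 were those of Gnas. The 4 without were those of Grb10, Phlda2, Dio3 and Igf2 printed above, with 45, 26, 25 and 24 CpG, and their nearest peaks lay 9258, 7765, 22575 and 8820 bp away. The limit of 20 was chosen after values were seen, and the other CpG classes did not all share this order. With 15 to 19 CpG 11 of 11 starts (100%) had a peak, against 92.3%, and with 10 to 14 CpG 6 of 8, against 81.5%. With 5 to 9 CpG it was 8 of 9 (88.9%), against 55.6%, and with 0 to 4 CpG 5 of 9 (55.6%), against 25.5%. Starts of members held a median of 14 CpG, against 7 in all.

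**Figure D5:**
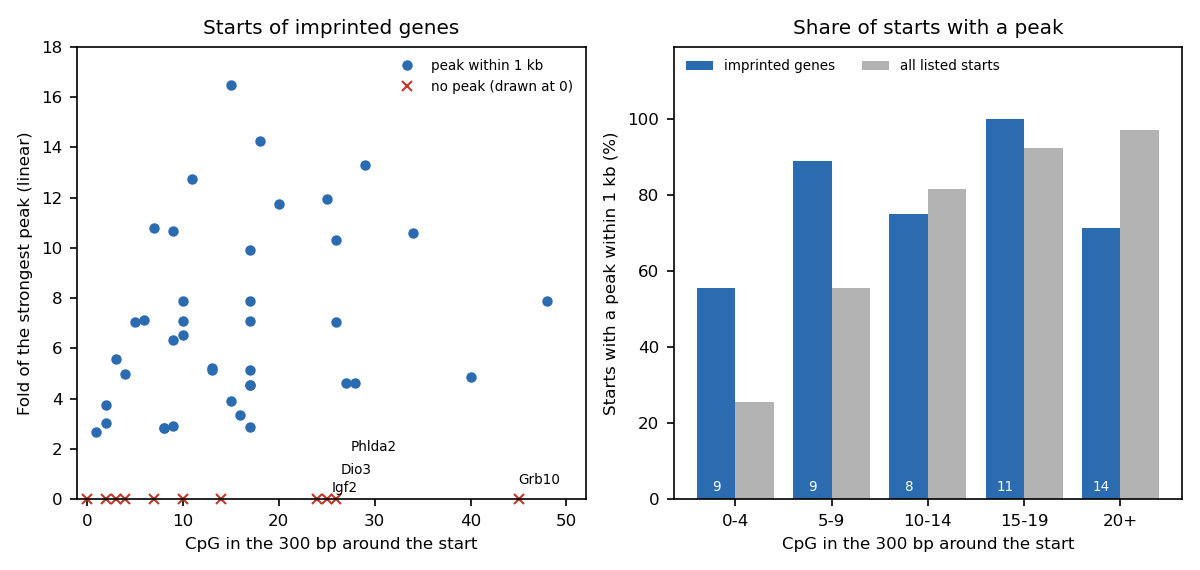
The left panel plots each of the 51 listed starts of imprinted genes by its CpG count in 300 bp and the linear fold of the strongest peak within 1 kb, with crosses at 0 for the 11 starts without a peak; the right panel gives the percentage of starts with a peak by CpG count for imprinted genes (blue, number of starts in white) and all listed starts (grey). The crosses of Igf2, Dio3, Phlda2 and Grb10 lie among the CpG-rich starts, where 71.4% of imprinted starts had a peak, against 97.1% in all.

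A start was counted with a peak only if one overlapped 1 kb either side, so closeness of the summit follows in part from this rule. The median distance of the summit was 146 bp over the 40 starts of members, against 156 bp over all listed starts with a peak. The farthest summit of a member start lay 2005 bp away, at Grb10. The median fold was 6.44 over the starts of members, against 7.64. The hexamer TGCCGC, on either strand, was present in 12 of 51 member starts (23.5%), against 11.6% of all. It contains a CpG, and among starts with at least 10 CpG it was present in 11 of 33 (33.3%), against 22.5%. The 12 starts belonged to 11 genes. A peak lay within 1 kb of 10 of these 12, against 40 of all 51 member starts (78.4%), and the share among all listed starts with the hexamer was not taken. The 10 belonged to 9 genes, since Mest starts that lie close together share a peak. Starts of Nap1l5 and Mest held the hexamer 2 times. The core GCCAT of the YY1 site, on either strand, which can overlap the hexamer where GC is shared, was present in 21 of 51 (41.2%), against 40.5%. A match is a match of letters in this window and says nothing of binding.

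Paternally and maternally expressed genes overlapped in end fold. Of 22 paternally expressed members 20 had an end peak, with a median fold of 6.07 (2.82 to 13.3), and of 13 maternally expressed members 10, with a median of 7.51 (4.50 to 14.8). The 7 members whose allele depends on tissue or isoform had 6 end peaks with a median of 8.54. An end peak was listed for 69.2% of all protein-coding and 53.2% of all long noncoding RNA genes. In the same order, the classes held 3, 4 and 0 noncoding genes, with median spans of 15505, 49637 and 85256 bp. Median coverage was 11.6%, 11.2% and 14.7% in the same order, without adjustment for length. Members that share a peak were each counted. These classes are background knowledge and the peaks were not assigned to an allele.

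A further list of 44 genes described as imprinted, 42 of them in the gene table, was described in the same way. An end peak was listed for 28 of 42 (66.7%), against 49.4% of all genes and 69.2% of protein-coding genes. The median fold at an end was 6.02, against 6.79 in all genes and 8.60 in protein-coding genes. A peak in the span and flanks was listed for 36 of 42 (85.7%), against 68.2% and 79.2%. The strongest were Nap1l4 (12.7), Mcts2 (11.8), Qpct (11.6), Snurf (10.8, the Snrpn peak) and Pon2 (10.7). The 6 without any peak were Zim3, Dio3os, Ins2, Klf14, Dcn and Slc38a4. Dio3os and Ins2 lie beside Dio3 and Igf2.

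The labelled tissue was checked against marker genes. All 12 hypothalamic markers, among them Pomc and Otp, had an end peak, against 69.2% of protein-coding genes, with a median fold of 5.38, against 8.60. Of 9 anterior pituitary markers only Tshb had one, and Gh, Prl, Fshb and Pou1f1 had no peak in the span and flanks. An end peak was found at 3 of 5 cortical, 1 of 6 cerebellar and hindbrain and 1 of 5 liver and placental markers, and all 5 cortical markers had a peak in the span and flanks.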

How the data were processed

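H3K27ac was measured by CUT&Tag in 3 bulk libraries of mouse hypothalamus, grouped by their titles. The submitters' processing notes name build mm10, BWA 0.7.17, MACS2 and, for the series, cutadapt 4.5, UMI-tools 1.1.4 and STAR 2.7.10a, without roles. How the replicates were joined into one list is not stated. The authors' deposited fold ratio and −log10 q per peak were read by the column order of the format, since the list has no header. Depth is unknown. The fold ratio is the authors' own value and only describes or ranks peaks within this list.

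Genes came from RefSeq (GRCm38.p6), which gives spans but no strand; strand and starts came from its promoter table, for 34 of 42 members. Coordinates are 1-based in mm10. Overlap meant at least 1 bp with the span and 10 kb flanks, or with 1 kb either side of an end or start. Python 3.11.15, numpy 2.4.6 and pandas 2.3.3 were used, and the overlap functions were tested on simulated data. No test was made, since 1 list without replicates allows none. Members and lists were chosen with earlier results of these data known, and the CpG classes, the fold of 10 and the 200 kb surroundings after values were seen. Named genes were, per cluster, the member with the strongest end peak, that with most peaks and those without an end peak, plus others to complete the account; printed starts without a peak were those with most CpG. Alternatives covered windows, overlap, stricter peaks and comparison sets.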

Additional observations from a re-analysis of the deposited data

How the results depend on the processing

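The counts of members with a peak stayed within 1.5 times the reported value under all 11 alternatives tried for them: 38 to 42 members over the span with flanks of 0 to 25 kb, and 28 to 39 at a gene end (29 of the 34 with a listed start, by strand). The shares of other genes moved too. Over the span, 51.4% of all genes had a peak without flanks and 75.2% with flanks of 25 kb. At a gene end, the share of protein-coding genes ran from 58.6% to 73.6%, whereas the members include 7 long noncoding RNA genes. The lowest count of members at an end, 28, came when peaks below the upper quartile of fold were dropped, where 58.6% of protein-coding genes had one. Distinct peaks fell to 250 when only peaks above the median −log10 q were used, a subset by construction. The median end fold of members minus that of all genes was 0.302, and it was 0.676 by the fold of the widest peak and -1.48 among protein-coding genes alone, so its direction depends on which genes are compared. The median coverage of members minus that of all genes was 6.40 percentage points, 11.5 over the span only, 3.60 with peaks above the median −log10 q and 4.44 within deciles of span length; the cause of these shifts was not tested. No paired analysis was possible because the replicates share a single peak list, and for the same reason no replicate could be left out. Depth is unknown, so a gene with no listed peak may still carry acetylation below the caller's threshold.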
